A study of Mus musculus with 37 samples.

Results

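Effector cytokines are the soluble or membrane-bound proteins by which natural killer (NK) cells act on other cells. Here 10 of their genes were followed: Ifng, Tnf, Lta, Ltb, Csf2, Il10, Il15, Fasl, Tnfsf10 and Tgfb1. They were taken by name, with earlier results of these data known, and all 10 were among the 53700 genes counted in each library. RNA was sequenced from uterine NK (uNK) cells of pregnant C57BL6 mice at gestation day 9.5 to 10.5, in 37 libraries. The cells were sorted as live, CD45+ and NKp46+, without T cell markers (CD3, CD4 and CD8), and with the highest CD11b levels left out. They were parted by NKG2A and Ly49C/I, which are inhibitory receptors for MHC class I through which NK cells are educated. WT mice gave 9 libraries of uneducated cells (negative for both receptors), 9 of NKG2A+ cells (negative for Ly49C/I) and 6 of Ly49C/I+ cells (negative for NKG2A). NKG2A KO mice, described as C57BL6, gave 8 libraries of uneducated cells and 5 of Ly49C/I+ cells. The mice received no treatment in the descriptions used here, and cells with both receptors were not collected. The labels do not say that the libraries came from separate animals, so p-values measure the spread between libraries. Libraries of different populations with the same number may share a source, and the main tests leave out any such pairing.

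IFN-gamma, the product of Ifng, is the main cytokine of NK cells. In the mouse uterus it acts on the spiral arteries of the decidua. Fas ligand and TRAIL, encoded by Fasl and Tnfsf10, are members of the TNF superfamily that trigger death receptors on target cells. TNF and the lymphotoxins alpha and beta belong to the same superfamily and signal to stromal and immune cells. GM-CSF (Csf2) acts on myeloid cells, IL-15 keeps NK cells alive, and IL-10 and TGF-beta 1 restrain immune cells.

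The genes of the 3 classical TNF-family cytokines lie side by side on chromosome 17 of GRCm38 (GENCODE M21 annotation). Ltb spans 35194439 to 35196320 on the plus strand, Tnf spans 35199381 to 35202007 on the minus strand and Lta spans 35203165 to 35205351 on the minus strand. Lta and Tnf are 1157 bases apart, and Tnf and Ltb are 3060 bases apart. Ifng lies on chromosome 10 from 118441046 to 118445892 on the plus strand, Fasl on chromosome 1 from 161780689 to 161788495 on the minus strand, Tgfb1 on chromosome 7 from 25687002 to 25705077 on the plus strand and Tnfsf10 on chromosome 3 from 27317028 to 27342427 on the plus strand. The exons of Ifng share 336 bases with those of Gm49751, a gene on the same strand, so reads from that stretch could not be given to one of the pair. Gm49751 itself reached mean levels of 1.42 to 5.18 CPM (read counts scaled to library size) in the 5 groups.

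RefSeq promoters (GRCm38.p6) were found for 8 of the 10 genes, and not for Il10 and Il15. Of each, the 250 bases before the RefSeq start of transcription were searched on both strands for AP-1 (TGANTCA), T-box (AGGTGT), RUNX (TGTGGT), STAT (TTCNNNGAA) and ETS (GGAAGT) letters, and on the gene's own strand for a TATA box (TATAAA). Of 32851 promoters in the same table, 6.75%, 11.8%, 14%, 7.02%, 19.7% and 7.59% held these letters, in the same order. The promoters printed here are those of Ifng and Fasl, which rose in NKG2A+ cells, and of Tgfb1, which was lower in NKG2A+ cells than in their Ly49C/I+ counterparts. Capitals mark matches.
Ifng, chr10:118440796-118441045, plus strand: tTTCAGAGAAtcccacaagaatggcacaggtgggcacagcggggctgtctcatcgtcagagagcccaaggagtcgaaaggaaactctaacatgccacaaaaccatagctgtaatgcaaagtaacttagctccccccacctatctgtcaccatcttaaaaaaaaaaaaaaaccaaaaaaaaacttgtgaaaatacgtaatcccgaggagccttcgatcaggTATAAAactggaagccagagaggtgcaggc
Fasl, chr1:161788496-161788745, minus strand: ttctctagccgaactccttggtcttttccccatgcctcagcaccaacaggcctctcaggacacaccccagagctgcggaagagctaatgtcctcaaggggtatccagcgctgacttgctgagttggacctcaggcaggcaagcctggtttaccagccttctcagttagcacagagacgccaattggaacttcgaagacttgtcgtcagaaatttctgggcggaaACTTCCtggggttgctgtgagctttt
Tgfb1, chr7:25686752-25687001, plus strand: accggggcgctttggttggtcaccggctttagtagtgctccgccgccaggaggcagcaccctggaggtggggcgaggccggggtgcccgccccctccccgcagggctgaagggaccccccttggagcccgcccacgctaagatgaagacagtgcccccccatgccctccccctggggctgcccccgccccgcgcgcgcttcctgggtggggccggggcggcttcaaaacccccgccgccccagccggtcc
The Ifng window held 1 STAT match and 1 TATA box at position -30 from the start. The Fasl window held 1 ETS match at position -26, on the opposite strand, and no TATA box. None of the 6 motifs was found in the windows of Tgfb1, Csf2 and Tnfsf10. For Csf2, on the minus strand, the window began at 54249900 and the GENCODE gene ends at 54249667, so the bases next to the GENCODE start were not searched. The windows of Ltb and Tnfsf10 ended at 35194506 and 27317076, past the GENCODE starts at 35194439 and 27317028. Tnf and Lta each held a TATA box, Tnf and Ltb each held 1 T-box match, and Lta and Ltb held 2 and 1 STAT matches. These matches describe the letters of the windows and are not shown to be binding sites.

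Each library held 13287163 to 18875033 reads on genes, with 13982 to 17859 genes detected. Klrc1, the gene of NKG2A, reached 604.5 ± 89.8 CPM (SD, n = 9) in WT NKG2A+ cells and means of 2.16 to 4.27 CPM in the other 4 groups. The knockout therefore could not be checked with this gene, because all NKG2A KO populations were also sorted as NKG2A negative. Klra9, the gene of Ly49I, reached 651.6 and 981.1 CPM in WT and NKG2A KO Ly49C/I+ cells and 70.2 to 106.2 CPM elsewhere. Klra3, the gene of Ly49C, went the other way: its means were 55.3 and 94.96 CPM in WT and NKG2A KO Ly49C/I+ cells, and 137.1, 166.8 and 145.7 CPM in WT uneducated, WT NKG2A+ and NKG2A KO uneducated cells. It was added after its values were seen, and reads of these similar receptor genes may be split between them. The 11 NK cell markers summed to between 19420 and 26080 CPM in every library. The 11 T cell markers summed to 729.2 to 1312 CPM in WT uneducated, 1318 to 1782 in WT NKG2A+, 1264 to 1553 in WT Ly49C/I+, 957.9 to 1475 in NKG2A KO uneducated and 1471 to 1651 in NKG2A KO Ly49C/I+ libraries. NK cells also express several of these genes, and the largest share was Lck. Cd4 was at 0 in WT Ly49C/I+ cells and in both NKG2A KO groups, Cd8b1 was at 0 in WT Ly49C/I+ cells, and Cd8a was at 0 in both NKG2A KO groups. Cd3e, by contrast, rose in WT NKG2A+ cells (log2 fold change 1.84 ± 0.37, SE, adjusted p = 0.00177). The 14 markers of monocytes, macrophages and dendritic cells were detected in every group and summed to 314.1 to 880.6 CPM in WT uneducated, 70.5 to 724.1 in WT NKG2A+, 88.4 to 684.5 in WT Ly49C/I+, 212.9 to 800.4 in NKG2A KO uneducated and 76.6 to 327.2 in NKG2A KO Ly49C/I+ libraries. Median sums of other markers are given for WT uneducated, WT NKG2A+, WT Ly49C/I+, NKG2A KO uneducated and NKG2A KO Ly49C/I+ libraries, in this order. The 9 epithelial and trophoblast markers had 258, 150.8, 171.6, 212.7 and 181.7 CPM. The 8 neutrophil and mast cell markers had 48.97, 20.19, 7.251, 37.92 and 6.609 CPM. The 13 stromal, decidual and endothelial markers had 279.7, 204.7, 195.5, 249.5 and 190.1 CPM. The part that these marker sums have in the results below was not tested. In bulk RNA, fewer cells of a type and less RNA per cell cannot be told apart.

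The 10 genes spanned more than 3 orders of magnitude. Per kilobase of exon, Fasl was the highest with a mean of 186.9 CPM over the 37 libraries, above 96.9% of the 9279 genes expressed. Ltb followed with 96.6 and Ifng with 80.4 CPM per kilobase, above 93.3% and 91.7% of these genes. Tgfb1 (29.1), Tnfsf10 (11.5) and Csf2 (9.37 CPM per kilobase) lay in the middle. Il15 (3.23), Tnf (2.59) and Lta (2.07 CPM per kilobase) were low, and Il10 (0.0566 CPM per kilobase) was close to absent. From here on, levels are CPM per gene on library sizes scaled by TMM, which evens out differences in RNA composition. For every gene, the 5 groups were put in order of their means, and in all 40 pairs of neighbouring groups the ranges over libraries overlapped.

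**Figure D1:**
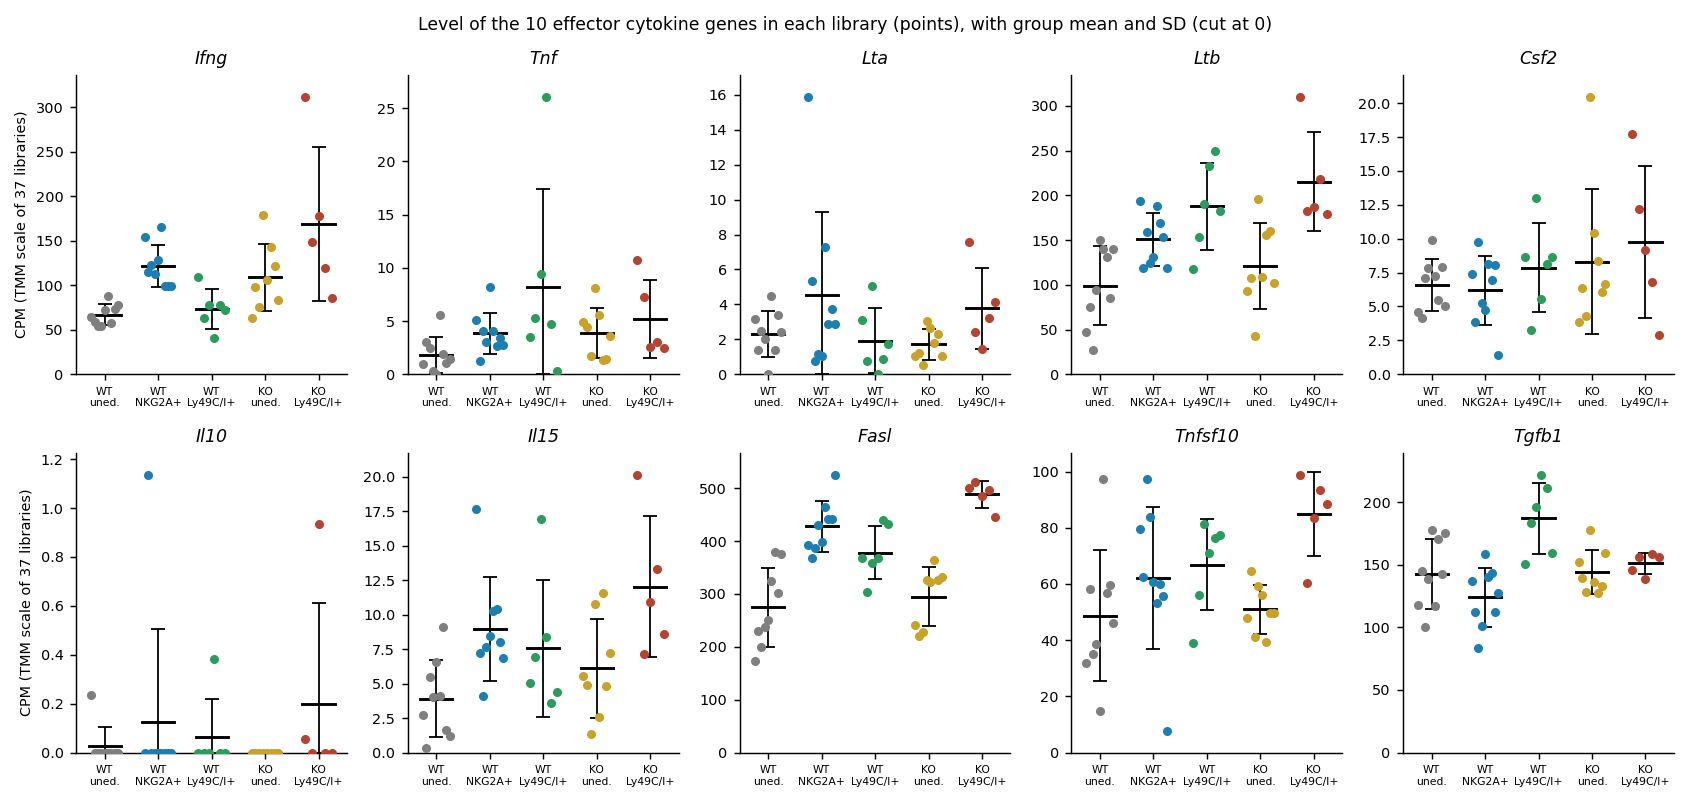
Level of each gene (CPM on a TMM scale, linear axis from 0) in the 37 libraries. Points are libraries in order of their number, bars are group means and whiskers are 1 SD, cut at 0. Ifng is high in WT NKG2A+ libraries (98.95 to 165.1 CPM) against WT uneducated ones (53.9 to 88.5 CPM), and Fasl in NKG2A KO Ly49C/I+ libraries (445.5 to 511.9 CPM) against NKG2A KO uneducated ones (220.0 to 364.4 CPM).

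Of the 10 genes, 9 could be tested. In WT NKG2A+ against WT uneducated cells, 2 of them (Ifng and Fasl) rose past an adjusted p of 0.05 and none fell (edgeR's quasi-likelihood test, Benjamini-Hochberg adjustment over all genes tested). Of the 9339 genes tested, 15% passed, 7.47% higher and 7.56% lower. In a wider fit of 12038 genes, which took in the scarce Tnf and Lta, 11.1% passed. In WT Ly49C/I+ against WT uneducated cells, 1 of 9 (Ltb) rose, against a background of 9.2% of 9292 genes (4.5% higher and 4.7% lower, and 6.14% in the wider fit). In WT NKG2A+ against WT Ly49C/I+ cells, Ifng was higher and Tgfb1 lower, against 2.73% of 9308 genes (1.31% higher and 1.42% lower, and 1.61% in the wider fit). In NKG2A KO Ly49C/I+ against NKG2A KO uneducated cells, 3 of 9 (Ltb, Fasl and Tnfsf10) rose, against 16.3% of 9299 genes (7.34% higher and 8.99% lower, and 10.7% in the wider fit). The first pair of these comparisons share the WT uneducated libraries, and the third sets their educated libraries against each other. Median log2 fold changes over the 9 genes were 0.64, 0.46, -0.10 and 0.71 in this order, beside medians of 0.0118, 0.01, -0.000624 and 0.0225 over all genes tested.

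No gene of any kind passed the threshold between the genotypes, so the share called was 0% of 9288 genes in uneducated cells, 0% of 9344 genes in Ly49C/I+ cells and 0% of 9322 genes for the difference of the Ly49C/I+ effect. With edgeR's quasi-likelihood test, 619, 992 and 407 of these genes had an unadjusted p under 0.05. DESeq2 called 1, 84 and 1 genes and edgeR's likelihood ratio test called 1, 60 and 1 genes in the same comparisons. In NKG2A KO mice the NKG2A-negative gates may also hold cells that would carry NKG2A in WT mice. Genotype and the make-up of the sorted populations cannot be told apart in these comparisons.

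**Figure D2:**
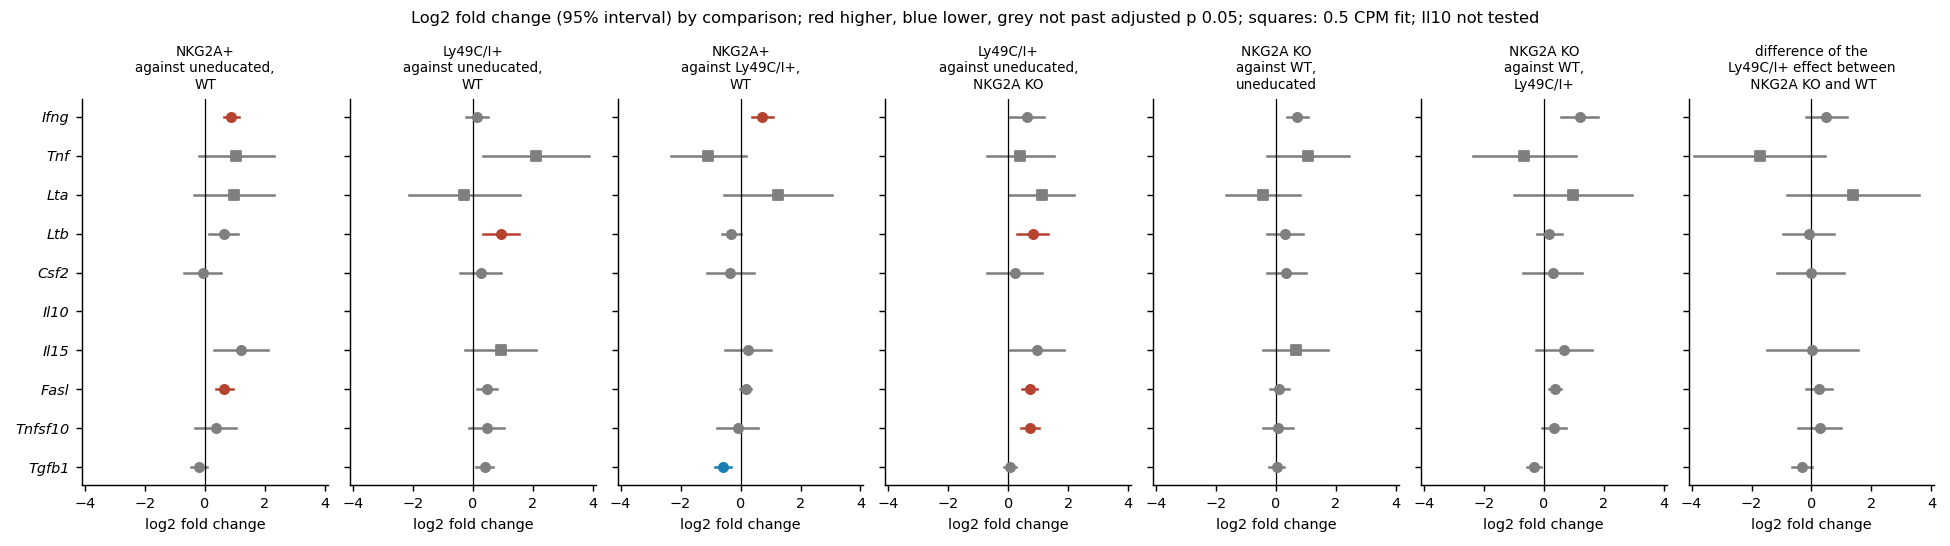
Log2 fold change of the 9 tested genes with 95% intervals in 7 comparisons. Red is higher and blue is lower past the threshold, grey is not past it, and squares mark genes tested in the wider fit. Ifng and Fasl are red in WT NKG2A+ cells, and the intervals of Tnf and Lta are the widest.

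Ifng was the gene that most clearly set WT NKG2A+ cells apart. Its level was 53.9 CPM in the lowest, 64.2 in the median and 88.5 in the highest WT uneducated library. In WT NKG2A+ libraries it was 98.95, 115.1 and 165.1 CPM. All 9 NKG2A+ libraries lay above all 9 uneducated libraries, a separation that 2.09% of all genes tested showed. The means were 121.8 ± 24.0 and 66.7 ± 11.9 CPM (SD, n = 9 each), a log2 fold change of 0.87 ± 0.12 (SE, adjusted p = 5.535e-05). Under 9 other settings the log2 fold change stayed between 0.87 and 0.91, and the adjusted p between 1.811e-09 and 0.00109.

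WT Ly49C/I+ cells showed no such rise. Their lowest, median and highest Ifng levels were 40.8, 74.96 and 108.9 CPM, overlapping the uneducated libraries on both sides. Against uneducated cells the log2 fold change was 0.14 ± 0.17 (SE, adjusted p = 0.671), with a 95% interval from -0.22 to 0.50. Tested directly between the educated populations of WT mice, the Ifng level of NKG2A+ cells exceeded that of Ly49C/I+ cells, with a log2 fold change of 0.73 ± 0.17 (SE, adjusted p = 0.0267) and 6 of 9 NKG2A+ libraries above every Ly49C/I+ library. This call was lost with GC and length offsets (adjusted p = 0.08335), and with the replicate number as a block plus these offsets (0.1274). It was also lost with all groups in 1 fit (0.05373), without the low-count filter (0.07204), and when WT Ly49C/I+ library 2 (0.06863) or 7 (0.05422) was left out. The share of reads outside genes, 2.90% to 4.47% in WT uneducated and 3.01% to 4.49% in WT NKG2A+ libraries, was 4.16% to 6.83% in WT Ly49C/I+ libraries, and its part in these differences was not tested.

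In NKG2A KO mice, Ifng varied widely. Uneducated libraries ranged from 63.4 to 179.2 CPM with a median of 102.5. The Ly49C/I+ libraries 4, 5, 6, 7 and 8 held 312.1, 149.1, 178.2, 119.6 and 85.9 CPM. Only library 4 lay above all uneducated libraries, and the log2 fold change of 0.62 ± 0.27 (SE) did not pass (adjusted p = 0.123). Without library 4 it was 0.27 (adjusted p = 0.4954). Ifng means were higher in NKG2A KO than in WT mice in both populations. In uneducated cells they were 108.9 ± 38.1 (SD, n = 8) and 66.7 ± 11.9 CPM (n = 9), a log2 fold change of 0.71 ± 0.17 (SE, adjusted p = 0.507). In Ly49C/I+ cells they were 169.0 ± 87.0 (SD, n = 5) and 73.5 ± 22.3 CPM (n = 6), a log2 fold change of 1.19 ± 0.29 (SE, adjusted p = 0.181). Both missed the threshold although 5 of 8 uneducated and 4 of 5 Ly49C/I+ libraries of NKG2A KO mice exceeded every WT library of their kind. The unadjusted p-values of this edgeR test were 0.00047 and 0.000881, and in Ly49C/I+ cells the difference passed with edgeR's likelihood ratio test (adjusted p = 0.0126) and with all groups in 1 fit (0.02025). Without NKG2A KO Ly49C/I+ library 4 it was 0.85 (adjusted p = 0.3797). The Ly49C/I+ effect on Ifng differed between genotypes by 0.49 ± 0.33 on the log2 scale (SE, 95% interval -0.19 to 1.17, adjusted p = 0.9995).

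The death ligand Fasl was abundant in every library and higher in each educated population. WT uneducated libraries held 173.3, 250.1 and 379.4 CPM (lowest, median and highest), and WT NKG2A+ libraries 369.0, 431.1 and 525.1 CPM. In this comparison 8 of 9 NKG2A+ libraries lay above all uneducated ones, and the log2 fold change was 0.64 ± 0.13 (SE, adjusted p = 0.00186). In WT Ly49C/I+ libraries Fasl reached 304.7, 367.4 and 439.2 CPM, and 2 of 6 lay above all uneducated libraries. Their log2 fold change of 0.46 ± 0.16 (SE) just missed the threshold (adjusted p = 0.0700), and it passed under 6 of 9 other settings. In NKG2A KO mice, the Ly49C/I+ libraries 4 to 8 held 500.7, 511.9, 485.9, 497.6 and 445.5 CPM, and the uneducated libraries 220.0, 324.5 and 364.4 CPM (lowest, median and highest). Here the groups did not overlap, as for 5.98% of all genes tested, and the log2 fold change was 0.71 ± 0.12 (SE, adjusted p = 0.00097). Without both libraries numbered 4, an alternative chosen after seeing the data, it was 0.72 (adjusted p = 0.00402).

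Fasl also separated the genotypes among Ly49C/I+ cells by range. All 5 NKG2A KO libraries lay above all 6 WT libraries, as 1.56% of all genes tested did in either direction. The means were 488.3 ± 25.7 (SD, n = 5) and 378.4 ± 50.4 CPM (SD, n = 6), with a log2 fold change of 0.36 ± 0.09 (SE, adjusted p = 0.212). DESeq2 called this difference (adjusted p = 0.0303), and edgeR did not under any other setting. Between uneducated cells of the 2 genotypes, Fasl differed by 0.11 ± 0.15 on the log2 scale (SE, 95% interval -0.21 to 0.43, adjusted p = 0.921).

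Tnfsf10, the gene of TRAIL, was lower in level than Fasl and more uneven between WT libraries. In WT uneducated libraries it ranged from 14.6 to 97.5 CPM with a median of 46.2. In WT NKG2A+ libraries it ranged from 7.56 to 97.3 CPM with a median of 60.8, and library 9 alone was under 53.4 CPM. That library and WT uneducated library 5, the lowest of its group, had the fewest genes detected of their groups (13982 and 13990). Between these groups the log2 fold change was 0.36 ± 0.33 (SE, adjusted p = 0.517). In WT Ly49C/I+ libraries Tnfsf10 was 39.0, 73.7 and 81.4 CPM (lowest, median and highest), with a log2 fold change of 0.46 ± 0.28 (SE, adjusted p = 0.340). Among NKG2A KO libraries the spread was smaller and Tnfsf10 rose. The Ly49C/I+ libraries 4 to 8 held 98.8, 60.2, 83.3, 93.6 and 88.6 CPM, and 4 of these 5 lay above the highest of 8 uneducated libraries, which ranged from 39.3 to 64.6 CPM. The log2 fold change was 0.72 ± 0.14 (SE, adjusted p = 0.00302), and with all groups in 1 fit it was 0.74 (adjusted p = 0.118). The Tnfsf10 effect of Ly49C/I did not differ between genotypes past the threshold (0.28 ± 0.35, SE, 95% interval -0.44 to 0.99, adjusted p = 0.9995).

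Ltb, the membrane-bound partner of lymphotoxin alpha, was higher in both Ly49C/I+ populations. WT uneducated libraries held 26.6, 94.7 and 149.5 CPM (lowest, median and highest), and WT Ly49C/I+ libraries 117.7, 186.4 and 249.5 CPM. Of the 6 Ly49C/I+ libraries, 5 lay above all uneducated ones. This gave a log2 fold change of 0.93 ± 0.29 (SE) and an adjusted p of 0.04996, which barely passed. It was lost with RLE factors (adjusted p = 0.05007), GC and length offsets (0.05416) and without the low-count filter (0.115). It was also lost when WT uneducated library 1 (0.08551), 2 (0.08901), 4 (0.08168), 7 (0.05005) or 8 (0.08319) was left out, and when WT Ly49C/I+ library 2 (0.06501), 4 (0.08109), 5 (0.1065), 7 (0.1293) or 8 (0.08015) was left out, although the log2 fold change stayed between 0.80 and 1.02. The NKG2A KO Ly49C/I+ libraries 4 to 8 held 310.2, 182.2, 186.4, 218.4 and 179.0 CPM, against 43.2, 108.3 and 196.2 CPM (lowest, median and highest) in uneducated cells.

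The Ltb rise in NKG2A KO mice was 0.81 ± 0.25 on the log2 scale (SE, adjusted p = 0.0331). Leaving out Ly49C/I+ library 4 gave 0.65 (adjusted p = 0.1158) and leaving out library 7 gave 0.80 (0.0675), and without the low-count filter the value was 0.82 (0.08493). Leaving out uneducated library 1, 2, 5 or 8 gave log2 fold changes of 0.77, 0.79, 0.79 and 0.78 (adjusted p = 0.05985, 0.05859, 0.05638 and 0.056). Without both libraries 4 the call held (0.77, adjusted p = 0.04527). In WT NKG2A+ libraries Ltb was 118.8, 153.1 and 193.8 CPM, with a log2 fold change against uneducated cells of 0.61 ± 0.24 (SE, adjusted p = 0.0879), which passed without WT uneducated library 5 (0.71, adjusted p = 0.0427). The estimates of the Ly49C/I+ effect on Ltb were alike in the 2 genotypes, with a difference of -0.10 ± 0.42 (SE) and a wide 95% interval from -0.95 to 0.76.

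Tnf and Lta, the neighbours of Ltb, were transcribed at a few CPM and passed the threshold in no comparison. Tnf was 0, 1.44 and 5.56 CPM (lowest, median and highest) in WT uneducated libraries, 1.25, 3.42 and 8.19 CPM in WT NKG2A+ libraries and 0.333, 4.97 and 26.1 CPM in WT Ly49C/I+ libraries. The highest value came from WT Ly49C/I+ library 5, and the next in that group was 9.37 CPM. The log2 fold change in WT Ly49C/I+ cells was 2.11 ± 0.83 (SE, adjusted p = 0.151), the largest estimate of any of the 9 genes in that comparison, and only the fit with all groups called it (adjusted p = 0.02811). Without WT Ly49C/I+ library 5 it was 1.31 (adjusted p = 0.4602). The NKG2A KO levels of Tnf were 1.31, 3.98 and 8.15 CPM in uneducated libraries and 10.8, 7.22, 2.57, 3.03 and 2.42 CPM in Ly49C/I+ libraries 4 to 8. Tnf varied widely within groups, and none of its differences passed in the comparisons as designed.

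Lta was 0, 2.42 and 4.49 CPM in WT uneducated libraries and 0.734, 2.89 and 15.9 CPM in WT NKG2A+ libraries. WT NKG2A+ library 1 held the highest value, and the log2 fold change of 0.96 ± 0.65 (SE, adjusted p = 0.403) was 0.43 (adjusted p = 0.7642) without that library. WT Ly49C/I+ libraries ranged from 0 to 5.04 CPM, NKG2A KO uneducated libraries from 0.530 to 3.07 CPM and NKG2A KO Ly49C/I+ libraries from 1.46 to 7.57 CPM. The Ly49C/I+ effect on Lta in NKG2A KO mice was 1.11 ± 0.51 on the log2 scale (SE, adjusted p = 0.186).

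Csf2, the gene of GM-CSF, had similar medians in the 5 groups. Group medians were 7.12 CPM in WT uneducated, 6.98 in WT NKG2A+, 8.37 in WT Ly49C/I+, 6.497 in NKG2A KO uneducated and 9.18 CPM in NKG2A KO Ly49C/I+ libraries. Log2 fold changes over the 6 comparisons of groups ranged from -0.34 to 0.34, and none passed. The intervals were not narrow: against WT uneducated cells they ran from -0.71 to 0.54 in NKG2A+ and from -0.42 to 0.93 in Ly49C/I+ cells. The lowest and highest library of all were WT NKG2A+ library 9 (1.44 CPM) and NKG2A KO uneducated library 4 (20.5 CPM).

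Il15, whose product is presented to NK cells by other cells, was low and had its lowest means in uneducated cells. It was 0.326, 4.01 and 9.13 CPM (lowest, median and highest) in WT uneducated libraries and 4.12, 8.03 and 17.6 CPM in WT NKG2A+ libraries. The log2 fold change of 1.204 ± 0.434 (SE) did not pass (adjusted p = 0.0645), and it passed under 6 of 9 other settings, among them DESeq2 (adjusted p = 0.03732), and when WT uneducated library 5 (0.03801) or 7 (0.02513) was left out. In WT Ly49C/I+ libraries Il15 was 3.59, 5.97 and 17.0 CPM, a log2 fold change of 0.93 ± 0.56 (SE, adjusted p = 0.381). In NKG2A KO mice it was 1.36, 5.24 and 11.6 CPM in uneducated libraries and 20.1, 7.16, 10.9, 13.3 and 8.59 CPM in Ly49C/I+ libraries 4 to 8, a log2 fold change of 0.96 ± 0.42 (SE, adjusted p = 0.131). The summed markers of monocytes, macrophages and dendritic cells, which also make IL-15, had medians of 464.8 and 390.6 CPM in the uneducated groups and of 240.2, 241.9 and 126.4 CPM in the educated groups. The part of such cells in the Il15 levels was not tested.

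Tgfb1, the gene of a cytokine that dampens NK cells, differed between the 2 educated populations of WT mice, with the lower level in NKG2A+ cells. WT NKG2A+ libraries held 83.7, 127.6 and 158.6 CPM (lowest, median and highest), WT uneducated libraries 100.1, 142.8 and 177.5 CPM and WT Ly49C/I+ libraries 150.4, 189.7 and 221.7 CPM. Of the 9 NKG2A+ libraries, 8 lay below every Ly49C/I+ library. The log2 fold change between them was -0.59 ± 0.13 (SE, adjusted p = 0.0168), and it passed in all 15 fits with 1 library left out. It was lost without the low-count filter (adjusted p = 0.05576) and with the replicate number as a block plus GC and length offsets (0.05171). Against uneducated cells, the log2 fold change was -0.20 ± 0.13 (SE, adjusted p = 0.335) in NKG2A+ and 0.39 ± 0.13 (SE, adjusted p = 0.0713) in Ly49C/I+ cells, and the latter passed under 5 of 9 other settings, among them DESeq2 (adjusted p = 0.04451), the likelihood ratio test (0.04543) and all groups in 1 fit (0.02232), and without WT uneducated library 5 (0.03178) or 9 (0.04743).

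Tgfb1 was nearly flat in NKG2A KO mice. Uneducated libraries ranged from 127.7 to 177.4 CPM, and the Ly49C/I+ libraries 4 to 8 held 146.1, 156.3, 138.3, 158.3 and 156.4 CPM. The log2 fold change was 0.05 ± 0.09 (SE), with a 95% interval from -0.14 to 0.24. The Ly49C/I+ effect was lower in NKG2A KO than in WT mice by an estimate of -0.33 ± 0.17 (SE, 95% interval -0.67 to 0.01), which did not pass (adjusted p = 0.9995).

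Il10 was not tested. It had 0 reads in 32 of 37 libraries and at most 1.14 CPM, in WT NKG2A+ library 2. All 8 NKG2A KO uneducated libraries were at 0, which allows up to 0.0216 CPM over that group (3 counts, counting error only). The other groups held 4 reads in 1 of 9 WT uneducated, 19 reads in 1 of 9 WT NKG2A+, 6 reads in 1 of 6 WT Ly49C/I+ and 17 reads in 2 of 5 NKG2A KO Ly49C/I+ libraries.

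Libraries of 1 number stood out in the NKG2A KO mice. Among the 9 genes other than Il10, NKG2A KO Ly49C/I+ library 4 held the highest value of its group for 7 (Ifng, Tnf, Lta, Ltb, Csf2, Il15 and Tnfsf10). NKG2A KO uneducated library 4 held the highest value for 6 (Ifng, Tnf, Lta, Ltb, Csf2 and Tgfb1). That uneducated library also had the most genes detected of its group (17006) and the largest share of reads outside genes (5.67%). NKG2A KO Ly49C/I+ library 4 did not, with 15852 genes (16893 in library 6) and 4.92% (5.26% in library 5). The share of all genes for which these libraries were highest was not counted. At the other end, NKG2A KO Ly49C/I+ library 8 was lowest for 5 genes. The part of these libraries in the wide spread of Ifng was not tested. Without both libraries 4, a setting chosen after seeing the data, the Ly49C/I+ effect on Ifng in NKG2A KO mice was 0.41 ± 0.21 (SE, adjusted p = 0.224). The same 3 genes as before passed there.

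**Figure D3:**
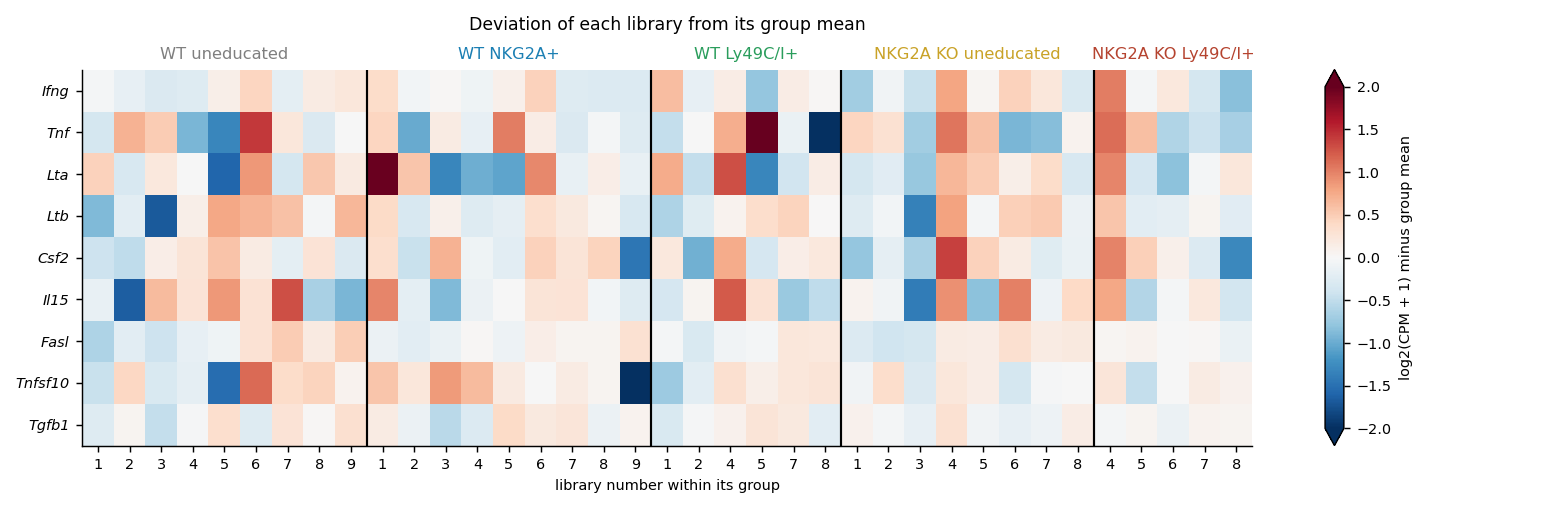
Deviation of each library (columns, grouped and numbered) from its group mean for 9 genes (rows), as a difference of log2(CPM + 1), with colours ending at -2 and 2. NKG2A KO libraries 4 of both populations are red for most genes, WT Ly49C/I+ library 5 stands out for Tnf (26.1 CPM) and WT NKG2A+ library 9 for Tnfsf10 (7.56 CPM).

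Pairs of the genes moved together to different degrees. With group means subtracted, Pearson's r of log2(CPM + 1) over the 37 libraries was 0.67 for Ifng and Csf2, 0.65 for Ltb and Fasl, 0.53 for Ltb and Tgfb1, 0.47 for Ifng and Lta and 0.42 for Ifng and Ltb. Lta and Ltb, although close neighbours in the genome, had an r of 0.10, and Tnf and Lta of 0.08, both pairs with few reads on at least 1 gene. Ifng and Tgfb1 had an r of -0.04. These values describe libraries that share their depth and preparation and carry no test.

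The genes most like each member, of 9286 compared, were ranked by Pearson's r over the 37 libraries without subtracting group means. The r within groups, given for some, did not enter the ranking. For Ifng they were the chemokine genes Ccl3 (r = 0.89, and 0.78 within groups) and Ccl4 (0.89 and 0.78) and the GTPase-activating gene Tagap (0.87 and 0.77). For Ltb they were the chemokine gene Xcl1 (0.92 and 0.89), the cathepsin gene Ctsw (0.91 and 0.86) and the interferon receptor gene Ifnar2 (0.90 and 0.84). Fasl was most like the kinase gene Lck (0.91 and 0.82), the NK receptor gene Klrb1c (0.91 and 0.78) and Gm19585 (0.91 and 0.73). Tgfb1 was most like Vgll4, Ier5l and Prdx6 (0.81, 0.80 and 0.79) and Tnfsf10 most like Golph3l, Gcnt1 and 9930104L06Rik (0.80, 0.76 and 0.75). Il15 was closest to the interferon-induced genes Tgtp2 and Rsad2 (0.75 and 0.74) and to Btg1 (0.67), with 0.54, 0.55 and 0.42 within groups. Csf2 was closest to Safb, Scly and Mapk8ip3 (0.61, 0.59 and 0.59).

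**Figure D4:**
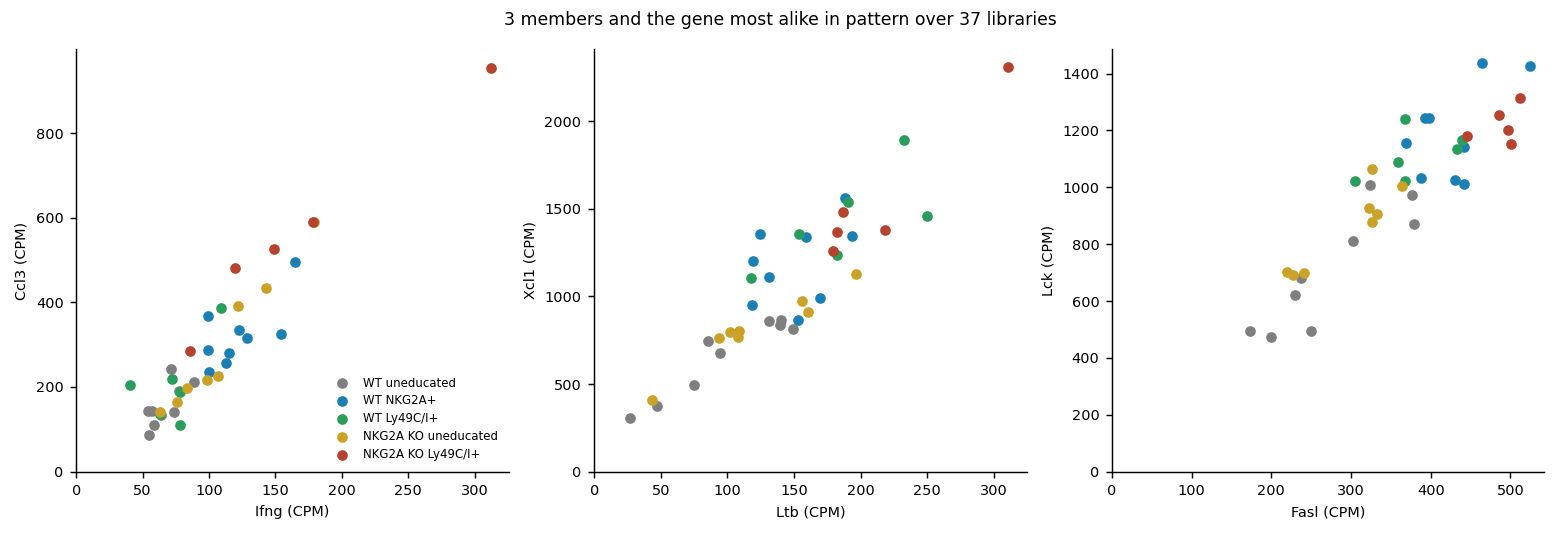
Levels in CPM (linear axes from 0) of Ifng and Ccl3, Ltb and Xcl1, and Fasl and Lck in 37 libraries, coloured by group. Pearson's r of log2(CPM + 1) was 0.89, 0.92 and 0.91, and NKG2A KO Ly49C/I+ library 4 lies at the upper right in the first 2 panels.

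Genes around the cytokines were described from fixed lists. These were chosen with earlier results of these data known, so their counts beside all genes are a description and no test. Of 31 tested genes that act upstream of Ifng (receptors for IL-12 and IL-18, and transcription factors), 10 rose and 1 fell in WT NKG2A+ cells. The largest rises were in Il18r1 and Il18rap, the 2 chains of the IL-18 receptor, by 1.66 ± 0.24 and 1.45 ± 0.16 on the log2 scale (SE, adjusted p = 7.558e-05 and 2.925e-06), and in the repressor gene Zeb2, by 1.33 ± 0.33 (SE, adjusted p = 0.00783). The gene that fell was Batf. Of the same genes in WT Ly49C/I+ cells, 8 of 31 rose and none fell, with Il18rap (0.83 ± 0.21, SE, adjusted p = 0.0213), Nfatc2 (0.76) and Irf1 (0.69) foremost. In NKG2A KO Ly49C/I+ cells 9 rose and 1 fell, again with Il18rap (1.02 ± 0.26, SE, adjusted p = 0.0128), Irf1 (0.56) and the IL-12 receptor gene Il12rb2 (0.56) foremost. Of all genes tested, 7.47%, 4.5% and 7.34% rose and 7.56%, 4.7% and 8.99% fell in these comparisons. Median log2 fold changes of the list were 0.20, 0.33 and 0.32, beside 0.01, 0.01 and 0.02 over all genes. Il18rap and Irf1 thus rose in WT Ly49C/I+ cells, where Ifng did not pass.

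Of 25 known targets of IFN-gamma tested, 11 rose and 1 (Psmb8) fell in WT NKG2A+ cells, 10 rose in WT Ly49C/I+ cells and 16 rose in NKG2A KO Ly49C/I+ cells. Of all genes tested, 7.47%, 4.5% and 7.34% rose in these comparisons. The list's median log2 fold changes were 0.41, 0.45 and 0.45, beside 0.01, 0.01 and 0.02 over all genes. Gbp6, a guanylate-binding protein gene, rose by 1.267 ± 0.230 in WT NKG2A+ and by 1.18 ± 0.24 in NKG2A KO Ly49C/I+ cells (SE, adjusted p = 0.00063 and 0.00356). Nlrc5, the transactivator of MHC class I genes, rose by 1.197 ± 0.184 in WT Ly49C/I+ and by 1.06 ± 0.23 in NKG2A KO Ly49C/I+ cells (SE, adjusted p = 0.00109 and 0.00524). Igtp (0.98) and Irf9 (0.75) were next in WT NKG2A+ cells, Cd274 (0.72) and Irf1 (0.69) in WT Ly49C/I+ cells and Irgm2 (0.92) in NKG2A KO Ly49C/I+ cells. Irf1 is among the genes that stand in both lists, and several of these genes are also targets of type I interferon. Between NKG2A+ and Ly49C/I+ cells of WT mice none of the 25 passed, with 254 of all 9308 genes (2.73%) called. At so small a share, this count does not set the list apart from all genes.

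Among 12 tested receptor genes for the cytokines, 4 rose and 1 fell in WT NKG2A+ cells. Of all genes tested, 7.47% rose and 7.56% fell there, and 4.5% and 7.34% rose in WT and NKG2A KO Ly49C/I+ cells. Tnfrsf1a, a receptor for TNF, rose by 0.97 ± 0.15, Il10rb by 0.58 ± 0.15 and Ifngr1, a chain of the IFN-gamma receptor, by 0.58 ± 0.08 (SE, adjusted p = 0.00013, 0.0132 and 7.318e-05). Il10ra rose and Tgfbr2, a chain of the TGF-beta receptor, fell by 0.37 on the log2 scale (adjusted p = 0.00706). Tested in WT Ly49C/I+ cells, 2 rose, Tnfrsf1b by 0.62 and Il10ra by 0.58 (adjusted p = 0.0416 and 0.0438). In NKG2A KO Ly49C/I+ cells 3 rose, Il10rb by 0.49, Ifngr1 by 0.32 and Tnfrsf1b by 0.28. Ifngr1 also passed between the educated populations of WT mice, with the higher level in NKG2A+ cells (0.31 ± 0.07, SE, adjusted p = 0.0283). It was the only receptor of the 12 to pass there, where 2.73% of all genes passed.

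Lists on processing and mRNA control were small and are given beside all genes tested. Of all genes, 15%, 9.2% and 16.3% passed in the 3 comparisons with uneducated cells. Of 7 tested genes of shedding and TGF-beta activation, 1 (Itgav, -0.43, adjusted p = 0.0239) fell in WT NKG2A+ cells and none passed against uneducated cells in either Ly49C/I+ population. Of 11 tested regulators of cytokine mRNA, Zfp36l2, which encodes an RNA-binding protein of the tristetraprolin family, rose in all 3 comparisons with uneducated cells, by 0.54 ± 0.09, 0.42 ± 0.11 and 0.46 ± 0.11 (SE, adjusted p = 0.0004, 0.0216 and 0.00999). The RNA-binding protein gene Elavl1 fell in WT Ly49C/I+ cells (-0.43, adjusted p = 0.0152), and Pdcd4, a regulator of translation, rose in NKG2A KO Ly49C/I+ cells (0.44, adjusted p = 0.0199).

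Other ligands and cytokines were mostly too low to test. Of 13 further TNF superfamily ligands, 5 or 6 were tested, and 1 passed: Tnfsf11, the gene of RANKL, fell by 1.18 on the log2 scale (adjusted p = 0.0227) in NKG2A KO Ly49C/I+ cells. Of 36 further cytokines, 9, 6 and 7 were tested in the 3 comparisons with uneducated cells, where 15%, 9.2% and 16.3% of all genes passed. Mif, a cytokine made by many cell types, fell in all 3, with log2 fold changes of -0.74, -0.70 and -0.80 (adjusted p = 0.00498, 0.0378 and 0.00044). Il23a, which encodes a chain of IL-23, fell in WT NKG2A+ and in NKG2A KO Ly49C/I+ cells, with log2 fold changes of -2.001 and -3.776 (adjusted p = 0.0327 and 0.00549). Flt3l rose in WT Ly49C/I+ cells (1.17, adjusted p = 0.00488) and Csf1 in NKG2A KO Ly49C/I+ cells (1.06, adjusted p = 0.0410), both genes of growth factors for myeloid cells. Of the 14 markers of monocytes, macrophages and dendritic cells, 7, 6 and 6 were tested in these comparisons, with median log2 fold changes of -0.00773, -0.19 and -1.11. Among them, Cd74 and H2-Ab1 fell in all 3 and no other passed, Cd74 with log2 fold changes of -1.18, -1.83 and -2.08 (adjusted p = 0.0140, 0.00593 and 0.00290), and their part in these results was not tested.

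**Figure D5:**
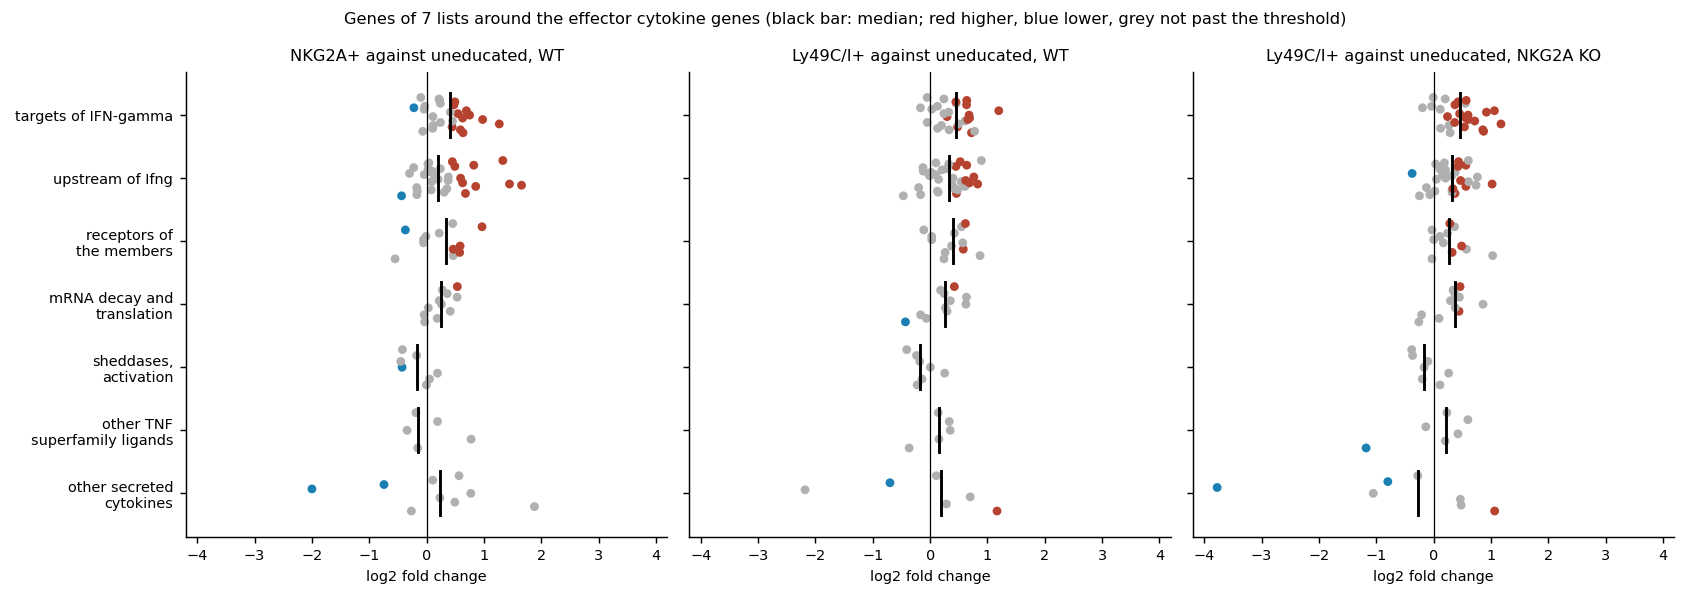
Log2 fold change of each tested gene (points) of 7 fixed lists in the 3 comparisons with uneducated cells, with the list's median as a black bar. Red is higher and blue is lower past the threshold. The lists were chosen with earlier results of these data known. Targets of IFN-gamma hold 11, 10 and 16 red points of 25 and genes upstream of Ifng hold 10, 8 and 9 of 31. Of all genes tested, 7.47%, 4.5% and 7.34% rose.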

How the data were processed

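Total RNA from sorted uNK cells was made into cDNA with a SMART-Seq v4 kit and into libraries with Nextera XT, without molecular identifiers. Per the labels, the authors used FastQC 0.11.4, Trim Galore 0.5.0 and STAR 2.7.1 with the GRCm38 build, and they deposited raw read counts for 53700 Ensembl genes in each of 37 libraries. For the read counting, program and strand setting: not given in the sources used here. The authors normalized with CQN for their own tests, which these counts do not hold. Each file also has 5 summary lines that name no gene and were left out. Of all reads, 2.69% to 6.83% lay outside genes.

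Libraries were grouped by genotype and sorted receptors as labelled. WT Ly49C/I+ libraries took their numbers from the descriptions, and some of their titles number otherwise. WT uneducated library 5 took its number from its title, and its description repeats that of library 4. The replicate block and the leaving out of numbered libraries rest on these numbers. Levels are CPM on TMM-scaled library sizes, set over 9287 genes and all 37 libraries. Differences were tested with edgeR 4.0.16 (quasi-likelihood test, Benjamini-Hochberg adjustment over all genes, threshold 0.05) in R 4.3.3, keeping genes that reached 5 CPM in a share of 0.5 or more of the compared libraries. Each fit held the compared groups only. Tnf and Lta in every comparison, and Il15 where it missed this filter, were tested with genes of at least 0.5 CPM in as many libraries as the smallest group held. Methods were tested on simulated data. The alternatives were RLE factors, DESeq2 1.42.0, the likelihood ratio test, GC and length offsets from splines with 5 degrees of freedom, the replicate number as a block, both, all groups in 1 fit, no filter on low counts, no WT libraries numbered 5 of uneducated and NKG2A+ cells, and 1 library left out at a time. Leaving out the NKG2A KO libraries 4 was chosen after seeing the data. Exon lengths and positions came from GENCODE M21. Named beside the members were Klrc1 and Klra9, up to 3 genes of each list with the largest change past the threshold, and the 3 genes most alike in pattern, with other list genes named only where 5 or fewer passed in a direction or were chosen after seeing the data. The members and lists were chosen with earlier results of these data known. Intervals from counts cover counting error only.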

Additional observations from a re-analysis of the deposited data

Results flagged for a closer look

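Some libraries lay farther from their group than a Dixon test at the 95% level allows. Of 55 groups of values tested (the 10 genes and the read totals in 5 groups), 12 stood out, and chance alone gives about 1 in 20.

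Among the TNF family, Tnf reached 26.07 CPM in WT Ly49C/I+ library 5, with 9.371 CPM next in its group. Lta reached 15.89 CPM in WT NKG2A+ library 1 (next 7.307 CPM). Tnfsf10 was at 7.558 CPM in WT NKG2A+ library 9, where the next lowest library held 53.4 CPM. Csf2 reached 20.48 CPM in NKG2A KO uneducated library 4 (next 10.45 CPM). Il15 was highest in WT NKG2A+ library 1 (17.63 CPM, next 10.38 CPM), the library with the high Lta level, and in WT Ly49C/I+ library 4 (16.96 CPM, next 8.371 CPM).

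Il10 stood out in single libraries because nearly all others were at 0. Its levels there were 0.2337 CPM in WT uneducated library 1, 1.135 CPM in WT NKG2A+ library 2, 0.3834 CPM in WT Ly49C/I+ library 5 and 0.9357 CPM in NKG2A KO Ly49C/I+ library 6, where the only other library with reads held 0.05406 CPM. Of the read totals, WT NKG2A+ library 8 was low with 13287163 reads on genes (next 16428488), and NKG2A KO uneducated library 1 was high with 18875033 (next 17596896).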

How the results depend on the processing

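Il10 had too few reads for a test, and Tnf and Lta, at a few CPM, had the widest intervals of the tested genes in all 7 comparisons. Outside the fits with 1 library left out, 514 of 567 values of single genes kept their direction and their side of the threshold, 11 lost the threshold, 23 gained it and 19 changed direction. Causes of these changes were not tested. The numbers were not taken as pairs, since the labels name no shared source. Libraries with the same number correlated above 0.1 in 4 of 9, 5 of 6, 2 of 6, 2 of 5, 3 of 8 and 0 of 4 pairs in the 6 comparisons of groups. Real pairs need not all pass that level, so these counts cannot settle the question. Median r was 0.0998, 0.130, 0.079, 0.0346, 0.0086 and 0.0187 for the same number, and 0.00047, -0.0208, -0.0173, -0.0058, 0.0110 and -0.0098 for other pairs. As a hint from the data, 4 of 9, 5 of 6, 6 of 6, 3 of 5, 3 of 8 and 2 of 4 same-numbered pairs were best matched to their own number. How many would do so by chance was not counted. Whether they share a source was not settled. The main tests hold no block, so their p-values leave out any such pairing. With the replicate block, Il15 in WT NKG2A+ cells (adjusted p = 0.04877) and Fasl and Tgfb1 in WT Ly49C/I+ cells (0.01349 and 0.03695) passed. With the block plus offsets, Ifng and Tgfb1 between the educated WT populations did not (0.1274 and 0.05171).

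In WT NKG2A+ against uneducated cells, 4 in place of 2 genes passed with GC and length offsets, with the replicate block or without it, and Csf2 changed to 0.0484 without the WT libraries 5. In WT Ly49C/I+ against uneducated cells, 0 passed with RLE factors or no low-count filter, 3 with DESeq2, the likelihood ratio test or the replicate block, 2 with the replicate block plus offsets or without the WT libraries 5, and 4 with all groups in 1 fit. Over all genes, 1528 passed with all groups in 1 fit and 451 with no filter. Between NKG2A+ and Ly49C/I+ cells, 558 genes passed with DESeq2, 442 with the likelihood ratio test and 104 with no filter. There 1 of the cytokine genes passed with offsets or all groups in 1 fit, and 0 with the replicate block plus offsets or no filter. Tnfsf10 became 0.0266 with the replicate block and Fasl -0.0218 with the block plus offsets. In NKG2A KO Ly49C/I+ against uneducated cells, 759 genes passed with the replicate block, 652 with the block plus offsets and 889 with no filter, and Csf2 became -0.1835 and -0.1282 under the first pair of these settings.

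Between genotypes, the replicate block matched WT and NKG2A KO libraries by number alone, and these cannot be from the same mouse. For the difference of the Ly49C/I+ effect, it matched libraries by number within each genotype. With DESeq2 or the likelihood ratio test, 1 gene passed between genotypes in uneducated cells. Tgfb1 became -0.0660 with offsets and -0.0158 with the block plus offsets, and Tnfsf10 became -0.0595 without the WT libraries 5. In Ly49C/I+ cells 84 genes passed with DESeq2, 60 with the likelihood ratio test and 18 with all groups in 1 fit, each with 1 of the cytokine genes (Fasl, Ifng and Ifng). Tnf became 0.0058 with the replicate block and 0.0709 with the block plus offsets, and Csf2 became -0.0527 with the block. For the difference of the Ly49C/I+ effect, 1 gene passed with DESeq2 or the likelihood ratio test. Ltb became 0.0309 with offsets. Il15 became -0.4040 with the replicate block, -0.4723 with the block plus offsets, -0.1008 without the WT libraries 5 and -0.0887 without the NKG2A KO libraries 4. Fasl became -0.0200 with the block and -0.1585 with the block plus offsets, where Tnfsf10 became -0.0634.

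With 1 library left out at a time, 2 to 4 cytokine genes and 1118 to 1687 genes passed in WT NKG2A+ cells, 0 to 3 and 466 to 1227 in WT Ly49C/I+ cells, 1 to 2 and 147 to 306 between these, 2 to 3 and 967 to 1763 in NKG2A KO Ly49C/I+ cells, and 0 and 0 to 15 between genotypes in Ly49C/I+ cells. In the other two comparisons 0 genes passed in each of these fits. The log2 fold changes that changed direction ran from -0.1941 to 0.0324 for Csf2 in WT NKG2A+ cells, from -0.0167 to 0.2522 for Ifng in WT Ly49C/I+ cells and from -0.2156 to 0.0485 for Tnfsf10 between these. In NKG2A KO Ly49C/I+ cells they ran from -0.0516 to 0.6468 for Tnf and from -0.1175 to 0.5507 for Csf2. Between genotypes in uneducated cells they ran from -0.0351 to 0.061 for Tgfb1 and from -0.0595 to 0.2592 for Tnfsf10, and in Ly49C/I+ cells from -1.098 to 0.1694 for Tnf and from -0.028 to 0.5349 for Csf2. For the difference of the Ly49C/I+ effect they ran from -0.2401 to 0.1663 for Il15 and from -0.3604 to 0.2059 for Csf2.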
